A study of Mus musculus with 6 samples.

Results

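The genes described here are 32 genes of cholesterol and fatty acid synthesis that are targets or regulators of the sterol regulatory element-binding proteins (SREBPs), taken from a table of 24062 genes by gene symbol. All 32 were found, and all 32 passed the low-count filter. By role, 7 encode enzymes of the mevalonate pathway and its acetyl-CoA supply, 10 encode enzymes that turn its product into cholesterol, 6 encode SREBPs, their regulators and a sterol carrier, and 9 encode enzymes of fatty acid synthesis. Expression was measured by RNA sequencing of polyadenylated RNA from mouse lineage-negative hematopoietic cells (depleted of cells with markers of mature blood lineages) that had been transformed by retroviral MLL-AF9, a leukemia-causing fusion of a histone methyltransferase gene. The 3 libraries labelled A20 WT came from A20 +/+ cells and the 3 labelled A20 KO from A20 f/f cells. Both groups carried Rosa Cre-ER, a Cre recombinase switched on by tamoxifen, and both received 1 µM 4-hydroxytamoxifen for 48 h, so the drug and the recombinase were common to them. Cultures held human IL-6, mouse IL-3 and mouse SCF at 10 ng/mL each. The labels do not say whether replicates were separate cultures, animals or transductions, so p-values measure only the spread between these libraries.

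SREBPs are made as precursors in the membrane of the endoplasmic reticulum, bound to the sterol sensor Scap. When sterols are scarce, Scap carries the precursor to the Golgi, where proteases release the part that enters the nucleus and activates genes of sterol and fatty acid synthesis. When sterols are plentiful, the Insig proteins hold Scap back. Leukemia cells in culture take up cholesterol from serum and also make it, and the mevalonate pathway supplies the isoprenoid groups that are attached to small GTPases.

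SREBPs bind DNA beside the factor NF-Y at many of these genes, so the sequence upstream of the start was searched for 3 motifs on both strands: a sterol regulatory element (TCACNCCAC), the NF-Y box (CCAAT) and the E-box (CACGTG). RefSeq promoter windows of build GRCm38.p6, 250 bases before to 50 after a start, were found for 25 of the 32 genes. The NF-Y box was in a window of 20 of these 25 genes (80%), against 41.1% of all 27025 genes with a window. The sterol regulatory element in this spelling was in 1 of 25 (4%), Hmgcs1, against 1.44% of all genes, and the E-box in 5 of 25 (20%) against 8.09%. Counted over single windows, 37.4%, 1.24% and 7.15% of 32851 windows held the 3 motifs. Matches of different motifs were counted separately whether or not they overlapped, and some genes had several windows. The 180 bases before the start are shown 5′ to 3′ on the gene's strand for the gene with the sterol regulatory element (Hmgcs1), for 3 genes that were higher in the KO-labelled libraries (Mvk, Mvd, Hsd17b7) and for the gene with the largest decrease (Fads2), with motif matches in capitals. They lie at chr13:119690171-119690350 (plus strand), chr5:114444089-114444268 (plus), chr8:122443423-122443602 (minus), chr1:169969206-169969385 (minus) and chr19:10101504-10101683 (minus).
Hmgcs1: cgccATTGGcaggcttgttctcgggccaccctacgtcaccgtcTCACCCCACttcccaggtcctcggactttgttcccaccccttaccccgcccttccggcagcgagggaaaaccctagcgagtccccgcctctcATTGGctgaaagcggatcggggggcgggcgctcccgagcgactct
Mvk: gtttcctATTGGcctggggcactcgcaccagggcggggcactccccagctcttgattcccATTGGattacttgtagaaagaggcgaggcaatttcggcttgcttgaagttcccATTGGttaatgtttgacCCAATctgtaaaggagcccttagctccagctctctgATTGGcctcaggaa
Mvd: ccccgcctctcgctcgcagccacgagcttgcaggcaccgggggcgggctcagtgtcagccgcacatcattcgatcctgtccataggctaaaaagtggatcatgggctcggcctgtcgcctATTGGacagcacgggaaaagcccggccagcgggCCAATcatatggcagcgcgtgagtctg
Hsd17b7: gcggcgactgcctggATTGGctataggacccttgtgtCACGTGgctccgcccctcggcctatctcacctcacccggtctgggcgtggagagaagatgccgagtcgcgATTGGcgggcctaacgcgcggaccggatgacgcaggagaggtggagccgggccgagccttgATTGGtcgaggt
Fads2: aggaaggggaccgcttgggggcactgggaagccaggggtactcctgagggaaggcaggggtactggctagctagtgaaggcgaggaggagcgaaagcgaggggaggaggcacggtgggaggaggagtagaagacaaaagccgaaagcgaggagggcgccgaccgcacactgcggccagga
In these stretches Hmgcs1 held 1 sterol regulatory element and 2 NF-Y boxes, Mvk 5 NF-Y boxes, Mvd 2, and Hsd17b7 3 with 1 E-box. Fads2 held none of the 3 motifs. Starts here are those of RefSeq and can differ from those of GENCODE. The Fads2 stretch lies after the GENCODE start of that gene (chr19:10101746, minus strand), so the bases before that start are not shown.

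The library labels were checked first. Tnfaip3, which encodes A20, had 7.39, 8.67 and 8.24 CPM (read counts scaled to library depth by the trimmed mean of M-values, TMM) in the libraries labelled WT and 100.1, 74.1 and 79.1 CPM in those labelled KO. The counts are per whole gene, and the labels do not say which exons were floxed, so reads from undeleted exons are included. Its level under the KO label was the higher one, and whole-gene counts cannot show whether that label is right. Groups are therefore called by their labels, and every direction is KO-labelled relative to WT-labelled. Xist was at 564 to 2109 CPM under the WT label and 0 to 4.77 CPM under the KO label, and Y-linked Ddx3y at 0 to 0.804 and 78.5 to 89.2 CPM, so the sex of the source cells and the genotype label cannot be told apart. Libraries held 16113320 to 25415274 counted reads, with no difference in group means beyond the spread (exact two-sided permutation p = 1; 3 against 3 libraries allow none below 0.1). In either group replicate 1 was unlike the other replicates: counts of KO-labelled replicates 2 and 3 differed by a chi-square per degree of freedom of 2.42, against 83.7 or more for replicate 1 with either of them, and the WT-labelled pairs gave 26.2 against 215 and 243. Genes that mark hematopoietic cells were abundant, with Ptprc at 214 to 598 CPM in the 6 libraries. Summed macrophage markers were higher in the KO-labelled libraries (639.5 to 1482 CPM against 64.2 to 328), although of 6 tested 2 rose (Csf1r, Cd14) and 2 fell (Mrc1, Fcgr1). Kit, the stem cell factor receptor, fell from 353 ± 48.0 to 102 ± 1.36 CPM (SD, n = 3). The part of these cell-state markers in the results below was not tested, and in bulk RNA fewer cells of a type and less RNA per cell cannot be told apart.

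Other cell types gave low sums. Mast cell and basophil markers summed to 82.0 to 156 CPM under the WT label and 16.6 to 18.3 CPM under the KO label. Most of the WT-labelled sum was Gata2, at 58.0 to 120 CPM against 4.71 to 5.06 CPM under the KO label. Fcer1a, Cma1, Tpsb2 and Prss34 were without a read. Megakaryocyte markers summed to 27.6 to 41.3 and 0.901 to 1.13 CPM (Gp6 without a read). Most of this was Itga2b, at 21.2 to 36.1 and 0.721 to 0.996 CPM. T cell markers summed to 7.18 to 13.02 and 4.83 to 7.98 CPM (Cd3e and Cd8a without a read). B cell markers summed to 2.13 to 2.53 and 0.657 to 0.996 CPM, erythroid markers to 0.943 to 1.90 and 1.01 to 1.56 CPM and stromal markers to 0.793 to 2.09 and 3.02 to 5.49 CPM, with Pax5, Ms4a1, Hba-a1, Hbb-b1, Hbb-bs, Alas2, Dcn and Lum without a read. Adipocyte markers, a check for a lipid-making cell type, summed to 5.22 to 49.0 CPM in the WT-labelled libraries, nearly all from Fabp4, and to 3.98 to 6.35 CPM in the KO-labelled libraries, where Pparg had 2.64 to 4.78 CPM against 0 to 0.248 CPM, with Cidec and Lep without a read. Of 2 adipocyte markers tested, Pparg rose and Fabp4 fell (adjusted p = 0.0052 and 0.0071 by edgeR).

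Of the 32 genes, 12 were higher and 2 lower in the KO-labelled libraries and 18 did not pass edgeR's quasi-likelihood test at a Benjamini-Hochberg adjusted p under 0.05. The 14 make up 43.8% of the group, beside 27.3% called of all 12126 genes tested (13.7% higher and 13.7% lower). The median log2 fold change was 0.24 over the 32 genes and -0.04 over all genes tested. Groups of libraries did not overlap for 15 of the 32, the 14 called genes and Elovl6, beside 47.6% of all genes tested. The genes together took 0.508 ± 0.031% of counted reads in the WT-labelled and 0.616 ± 0.115% in the KO-labelled libraries (n = 3). KO-labelled replicate 1, at 0.483%, lay inside the WT-labelled range of 0.472% to 0.527%. KO-labelled replicates 2 and 3 were at 0.684% and 0.680%.

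**Figure D1:**
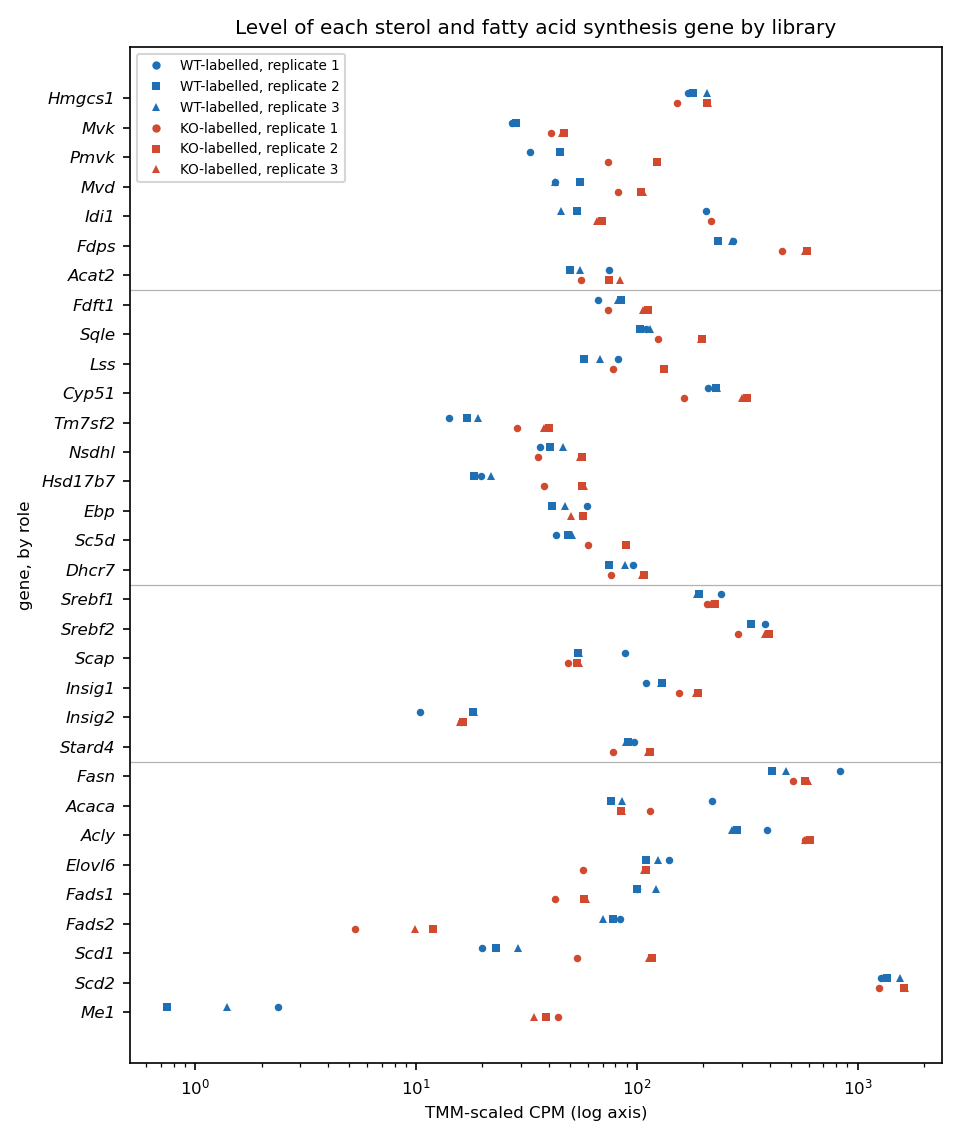
Level of each of the 32 genes in each library (TMM-scaled CPM, log axis), grouped by role from mevalonate enzymes at the top to lipogenic enzymes at the bottom; colour gives the group label and symbol the replicate. Me1 runs from 0.746 CPM in a WT-labelled library to 44.1 CPM in a KO-labelled one, and Idi1 is near 200 CPM only in the replicate 1 library of either group.

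In the mevalonate pathway, 4 of 7 genes rose and 0 fell, beside 13.7% higher and 13.7% lower of all genes tested. The median log2 fold change of the 7 was 0.67. The 4 encode enzymes that act one after another from mevalonate to farnesyl diphosphate, apart from the isomerase between them. Mvk, the mevalonate kinase, had 27.4, 28.5 and 27.9 CPM under the WT label and 41.0, 46.9 and 45.8 CPM under the KO label, a log2 fold change of 0.67 (SE 0.12; adjusted p = 0.0061 by edgeR). All KO-labelled libraries lay above all WT-labelled ones, which were almost equal. Pmvk, which adds the next phosphate, had 32.8, 44.8 and 45.1 CPM against 74.1, 124 and 123 CPM (log2 fold change 1.39, SE 0.24; adjusted p = 0.0058 by edgeR). Replicate 1 was the lowest library in either group, and the groups did not overlap. Mvd, the decarboxylase that makes isopentenyl diphosphate, had 42.4, 55.3 and 42.5 CPM against 82.5, 105 and 107 CPM (1.07, SE 0.17; adjusted p = 0.0040 by edgeR).

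Fdps, which joins the isoprene units into farnesyl diphosphate, stood at 274, 235 and 269 CPM under the WT label and 457, 591 and 581 CPM under the KO label (log2 fold change 1.07, SE 0.16; adjusted p = 0.0036 by edgeR). Every KO-labelled library was well above the WT-labelled range. Of its 31-base stretches, 27.9% also occur in transcripts of other genes, mainly Gm43738, so its count depends on how such reads were assigned. Idi1, the isomerase between Mvd and Fdps, had 206, 53.6 and 45.4 CPM against 216, 69.4 and 66.3 CPM and did not pass (adjusted p = 0.86 by edgeR). Its replicate 1 libraries were alike and above the others by 2.06 log2 units under the WT label and 1.67 under the KO label, a split by replicate and not by label. Gapdh showed the same split, with 2645 and 2716 CPM in replicate 1 and 167 to 254 CPM in the others. Idi1 shares 18.8% of its 31-base stretches with other genes, mainly Gm13502, so its count too depends on how such reads were assigned.

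Hmgcs1, the synthase that makes HMG-CoA and the only one of the 25 searched with the sterol regulatory element, had 171, 180.3 and 209 CPM against 152, 209 and 211 CPM (log2 fold change 0.03, SE 0.17; adjusted p = 0.92 by edgeR). Its groups overlapped fully. Acat2, the cytosolic thiolase that starts the pathway, had 74.5, 50.005 and 55.3 CPM against 55.7, 75.2 and 83.8 CPM and did not pass (adjusted p = 0.42). Acat2 shares 43.8% of its 31-base stretches with Acat3, which was too low to be tested, and 13.2% run opposite to those of Tcp1.

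Among the 10 enzymes from farnesyl diphosphate to cholesterol, 4 rose, 0 fell and 6 did not pass, with a median log2 fold change of 0.49. Of all genes tested, 13.7% were higher and 13.7% lower. Hsd17b7, a ketosteroid reductase in the demethylation of sterols, had 19.8, 18.3 and 21.8 CPM under the WT label and 37.9, 56.5 and 58.0 CPM under the KO label, a log2 fold change of 1.35 (SE 0.19; adjusted p = 0.0028 by edgeR). Tm7sf2, a sterol reductase that can act right after Cyp51, had 14.1, 17.1 and 19.2 CPM against 28.7, 40.2 and 38.2 CPM (1.09, SE 0.19; adjusted p = 0.0061 by edgeR). Neither gene's groups overlapped, and both stood highest in KO-labelled replicates 2 and 3.

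Sc5d, a sterol desaturase, had 43.3, 48.7 and 50.7 CPM against 60.2, 89.1 and 89.8 CPM (log2 fold change 0.74, SE 0.18; adjusted p = 0.022 by edgeR). Sqle, the epoxidase that oxidizes squalene, had 111, 104 and 115 CPM against 125, 198 and 195 CPM (0.65, SE 0.19; adjusted p = 0.044 by edgeR). For Sqle the KO-labelled replicate 1 was only slightly above the WT-labelled libraries. Both calls were lost when replicate 2 or 3 of either group was left out (adjusted p from 0.057 to 0.086 for Sc5d and from 0.099 to 0.15 for Sqle) and with scaling to library totals (0.050 and 0.078).

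Lss, the cyclase that folds squalene epoxide into lanosterol, had 82.6, 57.9 and 68.1 CPM against 78.0, 133 and 132 CPM and did not pass over 6 libraries (log2 fold change 0.72, SE 0.24; adjusted p = 0.065 by edgeR). Its KO-labelled replicate 1 lay within the WT-labelled range and the others far above it. Cyp51, the lanosterol demethylase, had 209, 228 and 230.1 CPM against 163, 316 and 301 CPM (0.22, SE 0.25; adjusted p = 0.56), with KO-labelled replicate 1 below every other library. The X-linked genes Nsdhl (chrX:72918557-72958514) and Ebp (chrX:8185329-8193512), a dehydrogenase and an isomerase of late steps, had log2 fold changes of 0.26 (SE 0.20) and 0.15 (SE 0.16). Dhcr7, which completes cholesterol by the last reduction, gave 0.16 (SE 0.17), and Fdft1, squalene synthase, 0.33 (SE 0.19). An exon of Fdft1 overlaps Ctsb on the opposite strand by up to 774 bases, and Ctsb had 441 to 1319 CPM under the WT label and 1779 to 4839 CPM under the KO label. The sources used here do not say whether counting used the strand, so reads of the 2 genes may not be told apart there.

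**Figure D2:**
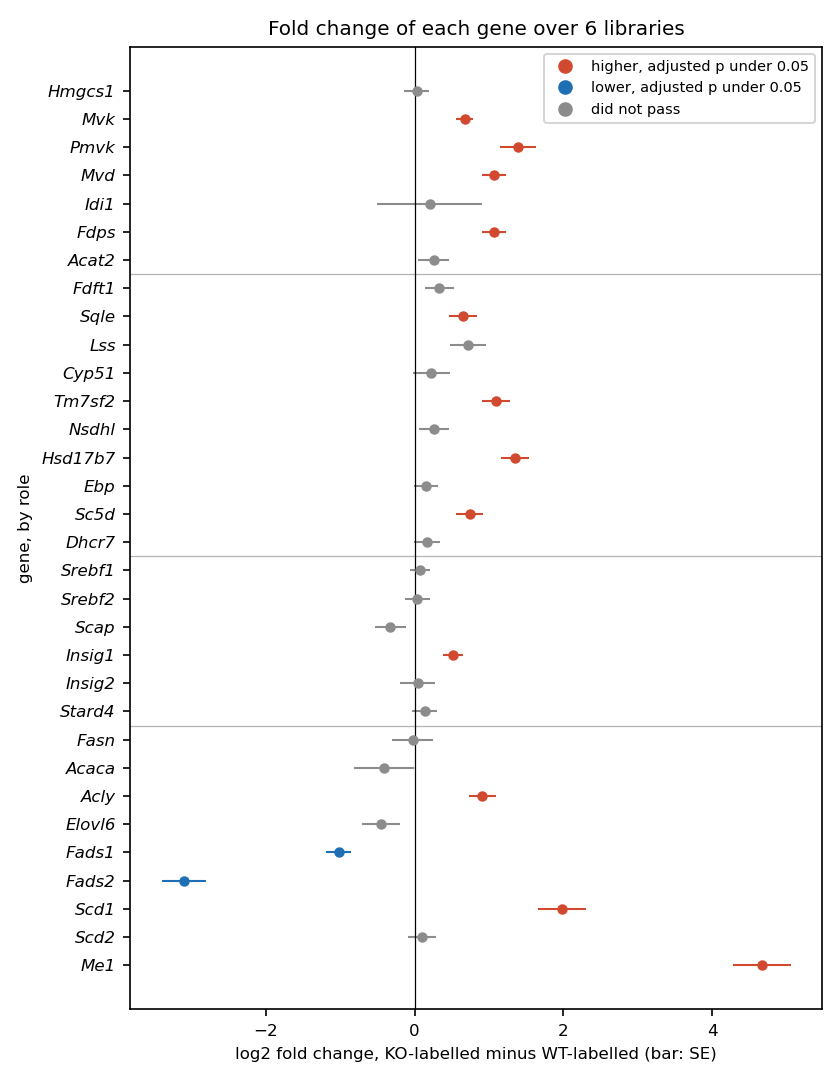
Log2 fold change of each gene (KO-labelled minus WT-labelled, 6 libraries; bars are SE), in the same order by role; red and blue mark genes that passed the test and grey those that did not. Fold changes run from -3.10 for Fads2 to 4.66 for Me1, and the SREBP genes themselves lie near 0.

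Of the 6 regulators, 1 passed the test, beside 27.3% of all genes tested. Insig1 encodes a protein that holds Scap back when sterols are plentiful and is itself an SREBP target. It had 111, 130.2 and 129 CPM under the WT label and 156, 189 and 185 CPM under the KO label (log2 fold change 0.52, SE 0.13; adjusted p = 0.028 by edgeR). The lowest KO-labelled library was above the highest WT-labelled one. The call was lost when replicate 2 or 3 of either group was left out (adjusted p from 0.063 to 0.12) and with scaling to library totals (0.077). Its relative Insig2 had 10.4, 18.1 and 18.3 CPM against 16.0, 16.3 and 15.8 CPM, with the WT-labelled replicate 1 alone below the KO-labelled libraries (0.04, SE 0.24; adjusted p = 0.92 by edgeR).

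Srebf1, whose product is best known for driving fatty acid synthesis, had 240.0, 192 and 188 CPM against 209, 227 and 216 CPM (log2 fold change 0.07, SE 0.14; adjusted p = 0.75 by edgeR). Srebf2, whose product is best known for driving sterol synthesis, had 380.5, 329.6 and 329 CPM against 287, 397 and 383 CPM (0.04, SE 0.17; adjusted p = 0.90). In both, the WT-labelled replicate 1 was the highest and the KO-labelled replicate 1 the lowest of its group, and the groups overlapped. Scap had 88.2, 54.1 and 54.5 CPM against 49.0, 53.8 and 54.5 CPM (-0.32, SE 0.21; adjusted p = 0.30), where 4 of 6 libraries were nearly equal. Stard4, a cytosolic sterol carrier on chromosome 18, gave 0.14 (SE 0.17; adjusted p = 0.60 by edgeR).

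Fatty acid genes divided, with 3 of 9 higher, 2 lower and 4 not passing, and a median log2 fold change of -0.03. The shares over all genes tested were 13.7% higher and 13.7% lower. Me1, the cytosolic malic enzyme that supplies NADPH for lipid synthesis, was almost silent in the WT-labelled libraries, at 2.38, 0.746 and 1.39 CPM (57, 13 and 28 reads). It had 44.1, 38.7 and 34.3 CPM under the KO label, a log2 fold change of 4.66 (SE 0.39; adjusted p = 2.9e-04 by edgeR). This was the largest change in size of the 32 genes. Me1 shares 30.0% of its 31-base stretches with other genes, mainly Gm7049. Acly, which splits citrate into the cytosolic acetyl-CoA used for both lipid classes, had 387, 283 and 269.9 CPM against 579.5, 610.3 and 579 CPM (0.91, SE 0.18; adjusted p = 0.0099 by edgeR). Its KO-labelled libraries were nearly equal and all above the WT-labelled ones.

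The enzymes that build and lengthen fatty acids from acetyl-CoA did not pass. Acaca, the carboxylase that makes malonyl-CoA, had 218, 76.4 and 85.4 CPM against 115, 85.2 and 85.8 CPM (log2 fold change -0.41, SE 0.40; adjusted p = 0.50 by edgeR). Fasn, the fatty acid synthase, had 831, 411 and 473 CPM against 511, 580.5 and 594 CPM (-0.03, SE 0.28; adjusted p = 0.96). For both, WT-labelled replicate 1 was far above every other library. Elovl6, which lengthens palmitate, had 140.0, 110.1 and 125 CPM against 57.1, 109.9 and 107 CPM (-0.45, SE 0.26; adjusted p = 0.24). Its groups were apart by less than 1 CPM, with KO-labelled replicate 1 alone far below. Acaca shares 33.4% of its 31-base stretches with other genes, mainly Gm5182.

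The stearoyl-CoA desaturases, which make monounsaturated fatty acids, differed from each other. Scd1 (chr19:44394455-44407879, minus strand) had 19.9, 23.1 and 28.9 CPM under the WT label and 53.5, 117 and 114 CPM under the KO label (log2 fold change 1.98, SE 0.32; adjusted p = 0.0045 by edgeR). Its neighbour Scd2 (chr19:44293674-44306864, plus strand) had 1279, 1366 and 1560.5 CPM against 1246, 1632 and 1643 CPM (0.10, SE 0.19; adjusted p = 0.73). Per kilobase of exon, Scd2 was the most abundant of the 32 in the WT-labelled libraries, at 257 ± 26.4 RPKM (reads per kilobase of exon, scaled as CPM; n = 3) against 4.96 ± 0.95 RPKM for Scd1, so the desaturase that rose remained the minor one at 19.6 ± 7.40 RPKM. In the KO-labelled libraries Fdps ranked first by this measure at 374 ± 51.4 RPKM and Scd2 second at 276 ± 41.5 RPKM, whose spreads bring the lowest Fdps and highest Scd2 library to 315 and 301 RPKM. Of the other genes within 250 kb of the Scd2 start, 4 were tested besides Scd1 and Scd2 and 0 passed, beside 27.3% of all genes tested.

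Fads1 and Fads2, genes of the fatty acid desaturase cluster whose enzymes make polyunsaturated fatty acids, went the other way. Fads2 (chr19:10062765-10101746, minus strand), which catalyses the first desaturation step, had 84.3, 78.2 and 70.5 CPM under the WT label and 5.27, 11.9 and 9.91 CPM under the KO label. This gave a log2 fold change of -3.10 (SE 0.30; adjusted p = 5.4e-04 by edgeR), and the groups were far apart in every replicate. Fads1 (chr19:10182888-10196877, plus strand), which acts later on the same fatty acids, had 100.3, 101 and 122 CPM against 42.5, 58.0 and 58.8 CPM (-1.02, SE 0.17; adjusted p = 0.0050 by edgeR). Fads3 (chr19:10041569-10060110, plus strand), the third gene of the cluster and not one of the 32, had 233, 280 and 260 reads in the WT-labelled and 1, 4 and 1 reads in the KO-labelled libraries, or 12.9 ± 3.18 against 0.093 ± 0.070 CPM (-6.98, SE 0.48; adjusted p = 1.4e-04 by edgeR).

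All 3 desaturase genes of the cluster were therefore lower. The genes around them, looked at after these values were seen, were mixed. Within 250 kb of the Fads2 start 10 genes were tested, of which 4 fell, 1 rose and 5 did not pass. The 4 include the 3 desaturase genes, whose values were already known, so those say nothing of the genes around them. Of all genes tested, 13.7% were lower and 13.7% higher. Besides the desaturases, the exchange factor gene Rab3il1 next to Fads3 fell (-1.82, SE 0.44; adjusted p = 0.021 by edgeR). The iron storage gene Fth1 rose (1.58, SE 0.38; adjusted p = 0.021). On the other side of Fads1, the replication gene Fen1 (-0.20, SE 0.25) and Tmem258 (-0.12, SE 0.15) did not pass.

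**Figure D3:**
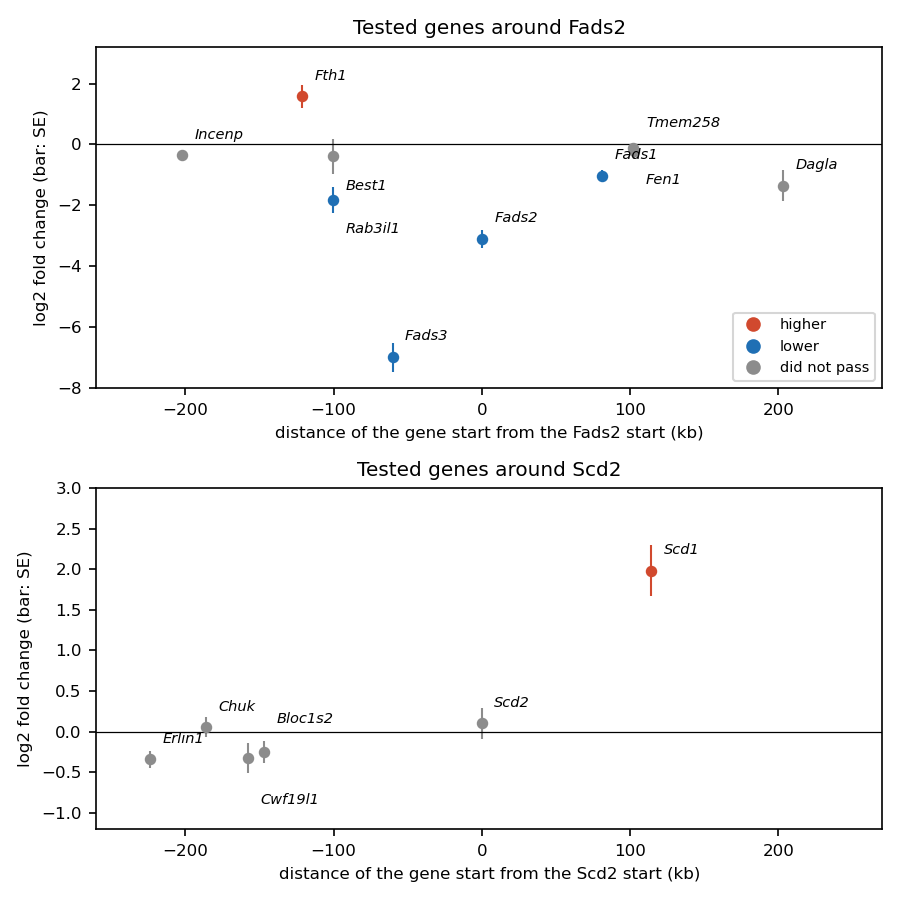
Log2 fold change (bars are SE) of tested genes within 250 kb of Fads2 (upper) and Scd2 (lower), by distance of each gene's start from that gene's start. Fads3, Fads2 and Fads1 lie below 0 at -60.2, 0 and 81.1 kb, while near Scd2 only Scd1, at 114.2 kb, passed the test.

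The signed log2 ratio of KO-labelled to WT-labelled was more positive in replicates 2 and 3 than in the replicate 1 pair for 31 of 32 genes, all but Insig2, beside 49.99% of the 11695 genes tested that had reads in every library. In the replicate 1 pair, with 1 library a group and no test, 15 genes had a positive and 17 a negative log2 ratio, with a median of -0.03. In replicates 2 and 3, 27 had a positive and 5 a negative log2 fold change, with a median of 0.40. KO-labelled replicate 1 was the lowest of its group for 26 of 32 genes (81.2%), beside 43.5% of all genes tested, whereas WT-labelled replicate 1 was lowest for 14 (43.8%) and highest for 16 (50%), beside 41.5% and 43.5% of all genes tested. The contrast between the replicate splits was noticed in these data and was not tested. Ctsb and Gapdh moved with replicate 1 as well: Ctsb stood at 441 CPM in WT-labelled replicate 1 and 1318 to 1319 CPM in the others of that label, and at 4839 CPM against 1779 to 1832 CPM under the KO label. Their part in the split of the 32 genes was not tested.

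Within replicates 2 and 3 alone, 23 of 32 genes were higher and 2 lower by edgeR (71.9% and 6.25%), beside 25.8% and 27.1% (52.9% in all) of 12201 genes tested. With those replicates so close to each other, that count rests on a small spread. The 11 added were Lss, Srebf1, Fasn, Idi1, Fdft1, Srebf2, Acat2, Stard4, Cyp51, Dhcr7 and Nsdhl. Lss had a log2 fold change of 1.06 (SE 0.09; adjusted p = 2.4e-04 by edgeR) in replicates 2 and 3 against a log2 ratio of -0.08 in replicate 1. Fasn had 0.39 (SE 0.09; adjusted p = 0.012) against -0.70, and Acat2 0.58 (SE 0.09; adjusted p = 0.0029) against -0.42. The sign was the same in both for 18 of 32 genes, which does not include these 3.

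Among the 18, Me1 had a log2 ratio of 4.21 in replicate 1 and a log2 fold change of 5.05 in replicates 2 and 3, Scd1 1.43 and 2.13, Pmvk 1.18 and 1.44, Tm7sf2 1.03 and 1.10, and Insig1 0.49 and 0.51. Fads2 had -4.00 and -2.77 and Fads1 -1.24 and -0.95, so the decrease of both was larger in replicate 1. With replicates 2 and 3 of each group summed into 1 library, 3 of the 32 passed, Mvd and Me1 higher and Fads2 lower, beside 8.44% of 12569 genes tested (4.32% higher and 4.12% lower).

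**Figure D4:**
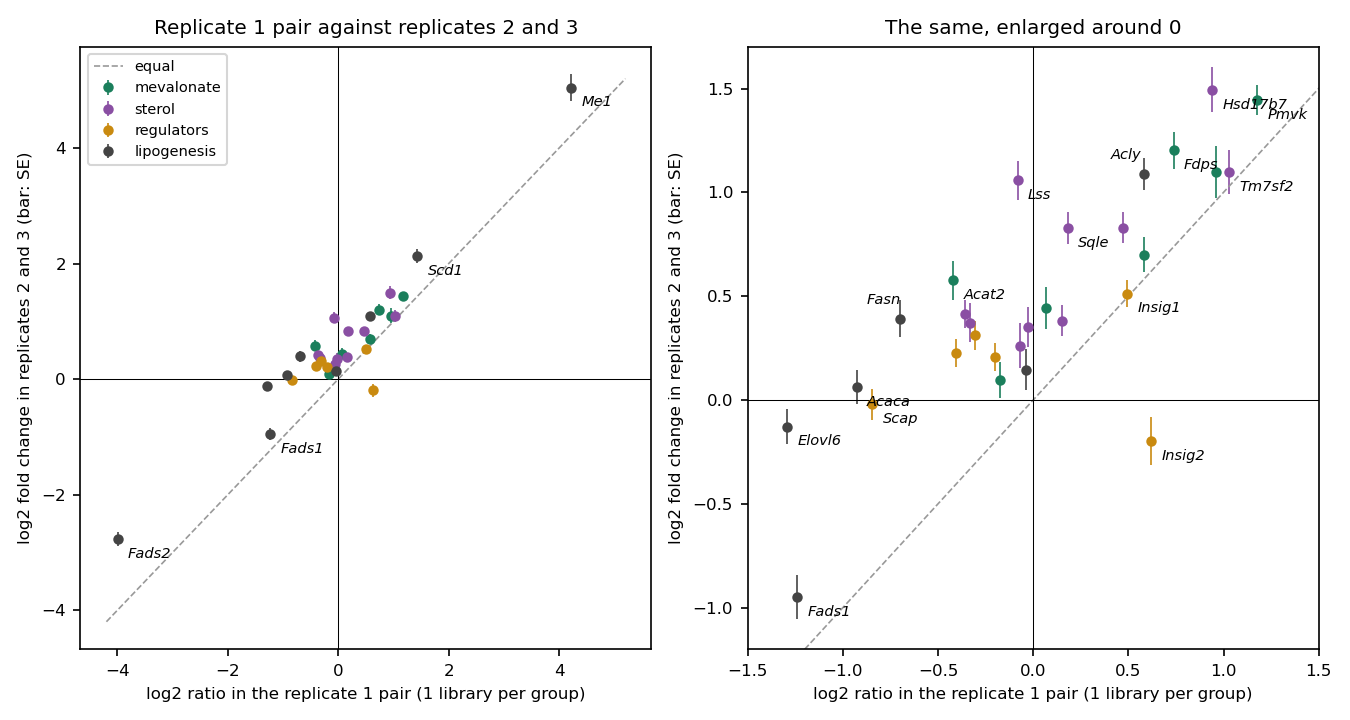
Log2 ratio of KO-labelled to WT-labelled in the replicate 1 pair (horizontal, 1 library a group) against the log2 fold change in replicates 2 and 3 (vertical, bars are SE), coloured by role, with the region around 0 enlarged at the right. All points except Insig2 lie above the dashed line of equal values.

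Other genes of the same pathways, listed by function, were set beside the 13.7% higher and 13.7% lower of all genes tested. Of 16 tested genes of sterol and isoprenoid synthesis outside the 32, 1 rose and 0 fell (median log2 fold change 0.03). That gene was Aacs, which makes acetoacetyl-CoA in the cytosol, at 84.2 ± 6.09 and 132 ± 11.3 CPM (0.65, SE 0.12; adjusted p = 0.0084 by edgeR). Of 15 genes of SREBP processing and sterol-regulated degradation, 2 rose and 0 fell (median 0.11). Ube2g2, a ubiquitin-conjugating enzyme, went from 63.5 ± 12.1 to 102 ± 4.62 CPM (log2 fold change 0.69, SE 0.16; adjusted p = 0.018 by edgeR). Mbtps1 and Mbtps2, the Golgi proteases that cut SREBPs, gave -0.14 (SE 0.12) and 0.11 (SE 0.15) and did not pass.

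Of 30 tested fatty acid and glycerolipid genes, 10 were higher, Aacs again among them since it stands in both lists, and 2 lower (median 0.06). Dgat2, which completes triglyceride, had 4.88, 4.82 and 3.28 CPM under the WT label and 56.1, 90.0 and 87.5 CPM under the KO label (log2 fold change 4.17, SE 0.27; adjusted p = 1.1e-04 by edgeR). Acsl1, which activates long fatty acids, rose from 93.8 ± 7.999 to 234 ± 4.95 CPM (1.32, SE 0.12). Named after their values were seen, the citrate carrier Slc25a1, which feeds Acly, rose from 99.8 ± 13.4 to 187 ± 8.06 CPM, the acetyl-CoA synthetase Acss2 from 5.87 ± 1.47 to 12.1 ± 1.40 CPM and the NADPH-producing enzyme G6pdx from 215 ± 15.0 to 337 ± 6.64 CPM (adjusted p from 0.0034 to 0.022 by edgeR). Pgd and Idh1 of the same list, which also produce NADPH, did not pass (log2 fold change 0.09, SE 0.16, and 0.03, SE 0.16). The 2 genes of the list that fell were Fads3 and the elongase Elovl7 (19.7 ± 6.86 to 6.18 ± 1.17 CPM).

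Of 15 genes of sterol storage and traffic, 2 rose and 2 fell (median 0.14). The sterol transporter Gramd1b rose from 22.4 ± 3.97 to 72.0 ± 7.86 CPM and Stard3, an endosomal sterol carrier, from 39.4 ± 3.06 to 72.7 ± 8.73 CPM. Gramd1c fell from 7.44 ± 2.84 to 1.36 ± 0.297 CPM and Stard5 from 19.1 ± 3.82 to 11.8 ± 1.28 CPM (adjusted p from 6.5e-04 to 0.040 for the 4 genes by edgeR).

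**Figure D5:**
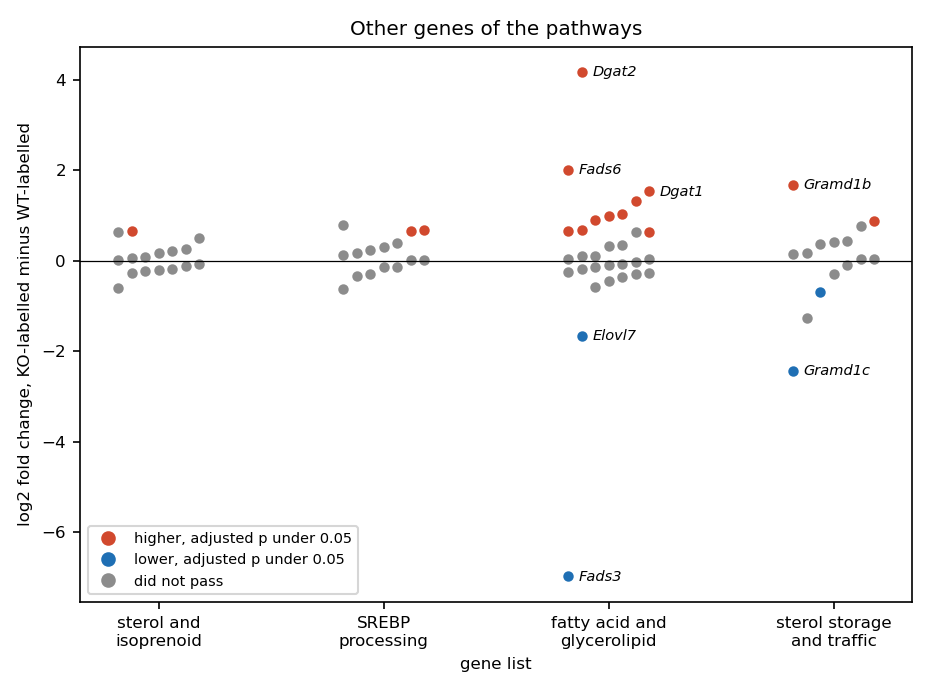
Log2 fold change (KO-labelled minus WT-labelled) of each tested gene in 4 lists of pathway genes outside the 32; red and blue mark genes that passed the test. The fatty acid and glycerolipid list spans from -6.98 (Fads3) to 4.17 (Dgat2), and the SREBP processing list stays within 1 log2 unit of 0.

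Motif matches were compared with the calls as a description. All 9 of the higher genes with a promoter window held an NF-Y box, as did 11 of 15 genes that did not pass. The 9 were Mvk, Pmvk, Mvd, Tm7sf2, Hsd17b7, Sc5d, Insig1, Acly and Me1. Some matches did not lie before the GENCODE start. Me1 had its only match in 1 of 2 windows, at chr9:86687228-86687527 inside the gene. The Tm7sf2 window also lies inside its gene, and the Acly match lay 37 bases after the start. Among genes that did not pass, the Dhcr7 matches were in a window inside the gene. The one window of Fads2, whose RefSeq start lies inside the GENCODE span of the gene, held none, and Fads1 had no window. E-boxes were in 3 of the 9 higher genes (Hsd17b7, Sc5d, Insig1) and in 2 of the 15 (Dhcr7, Scap).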

How the data were processed

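Gene expression was measured in 6 libraries, 3 per label. The authors deposited raw counts of reads per gene symbol, without normalization. Per the submitters' processing notes, FastQC 0.11.7, HISAT2 2.0.5 and featureCounts 1.5.2 were used with mm10; a stranded mRNA kit was used per the labels' protocols, and the sources used here name neither annotation nor strand setting. Libraries were grouped by their labels.

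Counts were fitted over all genes with edgeR 4.0.16 in R 4.3.3 (TMM scaling, default low-count filter leaving 12126 genes, robust quasi-likelihood test, Benjamini-Hochberg adjustment over all genes, called under 0.05). The SE is the log2 fold change divided by the square root of its F statistic. The tests were checked on simulated data with the same dispersion for every gene and no difference between replicates other than depth. That check does not cover the replicate 1 split of these libraries. Also run were other scalings, DESeq2 1.42.0, limma-voom (limma 3.58.1), other filters, non-robust dispersion, a block, a term for replicate 1, replicates 2 and 3 alone or summed, a threshold of 0.01, and each library left out.

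The 32 genes, the lists and the alternatives were chosen with earlier results of these data known. Of each pathway list, up to 3 called genes with the smallest p-values were named; some items are not reported here. Of 151 pathway and marker list entries (Aacs stands in 2 lists) 150 were found, 6 by an older name. Positions and exon lengths came from GENCODE M21 of the same build; lengths, shared 31-base stretches (same strand) and RPKM depend on that annotation, which may differ from the authors'. Promoter sequences came from RefSeq windows of GRCm38.p6.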

Additional observations from a re-analysis of the deposited data

How the results depend on the processing

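Over 18 alternatives, the 14 called genes kept their direction in each. All 14 remained called with RLE or upper-quartile scaling, DESeq2 (which added Lss), limma-voom, other filters, non-robust dispersion and a term for replicate 1. Scaling to library totals lost Sqle, Sc5d and Insig1, leaving 9 higher, with 24.8% of all genes called. Leaving out 1 library gave 9 to 13 genes higher and 2 lower. Of all genes, 1855 (without KO-labelled replicate 2) to 5280 (without WT-labelled replicate 1) were called, beside 3316 with all libraries. Without WT-labelled replicate 1, 46.9% of the 32 were called, close to the 42.8% of all genes. Without KO-labelled replicate 1 these shares were 46.9% and 18.4%. Leaving out any other library gave 34.4% of the 32, beside 15% to 20% of all genes. An adjusted p under 0.01 left 9 higher and 2 lower (34.4%), and 1694 of all genes (14%). In replicates 2 and 3 alone 23 were higher, with 6458 of all genes called; with these replicates summed 2 were higher and 1 lower, with 1061 of all genes, and fewer samples remained to estimate the spread.

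The replicate block left 10 of the 32 higher and 2 lower (37.5%), losing Sqle (adjusted p = 0.095 by edgeR) and Insig1 (0.056). Of all genes, 2023 were called (16.7%). Over all genes tested, deviations of same-numbered libraries from their group means hardly correlated (-0.0060, -0.055 and 0.052 for replicates 1, 2 and 3). The numbers were therefore not taken as pairs. WT-labelled replicate 1 correlated best with KO-labelled replicate 2, but only at 0.036. Single genes can still move together: Idi1 and Gapdh were high in replicate 1 of both labels, while Ctsb moved opposite ways.

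Sign changes occurred only in genes that did not pass over 6 libraries, and the cause was not tested. With 1 library left out, the log2 fold change of Hmgcs1 was lowest at -0.046 (KO-labelled replicate 3 out) and highest at 0.17 (KO-labelled replicate 1 out). Srebf2 went from -0.043 (KO-labelled replicate 2 out) to 0.18 (KO-labelled replicate 1 out), and Idi1 from -0.58 (KO-labelled replicate 1 out) to 1.25 (WT-labelled replicate 1 out). It ran from -0.18 (without WT-labelled replicate 1) to 0.17 (without WT-labelled replicate 3) for Insig2. For Fasn and Acaca it ran from -0.22 and -0.68 (without WT-labelled replicate 2) to 0.35 and 0.24 (without WT-labelled replicate 1). Replicates 2 and 3 alone gave -0.20 for Insig2, 0.39 for Fasn and 0.062 for Acaca, and summed they gave -0.029 for Srebf2. Fasn had 0.057 with limma-voom, 0.044 with the replicate block and 0.042 with a term for replicate 1.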
